A study of Mus musculus with 8 samples.

Results

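Neurexins, neuroligins and leucine-rich repeat transmembrane proteins (LRRTMs) form a shared set of adhesion partners across the synaptic cleft. The genes described here were chosen by name, as listed members of these 3 families: the neurexins Nrxn2 and Nrxn3, the neuroligins Nlgn1 and Nlgn3, and Lrrtm1, Lrrtm2, Lrrtm3 and Lrrtm4. All 8 were among the 15519 genes of the deposited table, and 7 of the 8 had enough reads to be tested. Lrrtm3 did not pass the filter on low values. The libraries held nuclear RNA from pyramidal neurons of the wild-type mouse hippocampus. Imaging in living mice had picked these neurons out as place cells, which fire at particular locations, and light was used to mark their nuclei for collection. There were 4 libraries of Recurring place cells and 4 of Day 0 place cells. The labels do not define these classes further and do not say how many nuclei went into a library. They give no age or sex. Every library's title names a mouse of its own, which is all that marks the libraries as separate animals.

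Neurexins sit in the presynaptic membrane, and each gene makes a long and a short form that are heavily spliced. On the postsynaptic side they are bound by neuroligins and by LRRTMs, which compete for an overlapping surface. Neuroligin 1 is known from excitatory synapses, and neuroligin 3 from both excitatory and inhibitory ones. In CA1 pyramidal neurons LRRTM1 and LRRTM2 are known to hold AMPA receptors at the synapse, while LRRTM4 is best known from dentate granule cells and binds heparan sulfate chains. A pyramidal neuron makes both sides: neurexins for its own axon terminals, and neuroligins and LRRTMs for the synapses it receives.

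Library depth was 8613854 to 14887866 reads in Recurring and 8374986 to 11789782 reads in Day 0 cells. Values are normalized counts, which are reads divided by a size factor of the library, unless a log2 level (log2 of the normalized count plus 1) is named. Of 14 markers of CA1 pyramidal neurons 13 were in the table, with a summed normalized count of 36545 to 51851 in Recurring and 35904 to 45986 in Day 0 libraries. Zbtb20, a transcription factor gene on this list, had the highest mean of these, at 13643 to 31738 in Recurring and 10606 to 22734 in Day 0 libraries. It made up 31738 of the 51851 in Recurring replicate 1 and 10606 of the 38154 in Day 0 replicate 4. The sums thus rest to a varying part on this gene, and the cell type its reads came from was not tested. Recurring replicate 1 also had the highest astrocyte marker sum, 18632. Markers of other cells were present too. The sum of the 11 measured of 12 interneuron markers ranged from 1854 to 14045 in Recurring and from 736 to 4527 in Day 0 libraries. The sum of the 12 measured of 13 astrocyte markers ranged from 2367 to 18632 in Recurring and from 2716 to 4256 in Day 0 libraries. Oligodendrocyte markers (9 measured of 11) summed to 1437 to 7644 in Recurring and 1557 to 12071 in Day 0 libraries, and those of their precursors (4 of 8) to 939 to 1625 in Recurring and 311 to 2786 in Day 0 libraries. In bulk libraries such as these, fewer cells of a type and less RNA per cell cannot be told apart.

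No gene of the 3 families differed between Recurring and Day 0 cells at the threshold. By limma, 0 of 7 tested members had a Benjamini-Hochberg adjusted p under 0.05, against 0% of the 11078 genes tested, and the lowest adjusted p among the members was 0.981. At an unadjusted p under 0.05 there were also 0 of 7, against 3.62% of all genes tested. By voom, a precision-weighted form of limma on the recovered reads, 0 of 7 passed the threshold and 0 had an unadjusted p under 0.05, against 0 and 518 of all 11078 genes. The mean was higher in Recurring cells for 5 of 7 members and lower for 2, where 50.1% of all genes tested were higher and 49.9% lower. The median difference of the 7 members was 0.52 log2 units (Recurring minus Day 0), against 0.00 over all genes tested. The groups did not overlap in 0 of 7 members, against 2.41% of all genes tested.

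**Figure D1:**
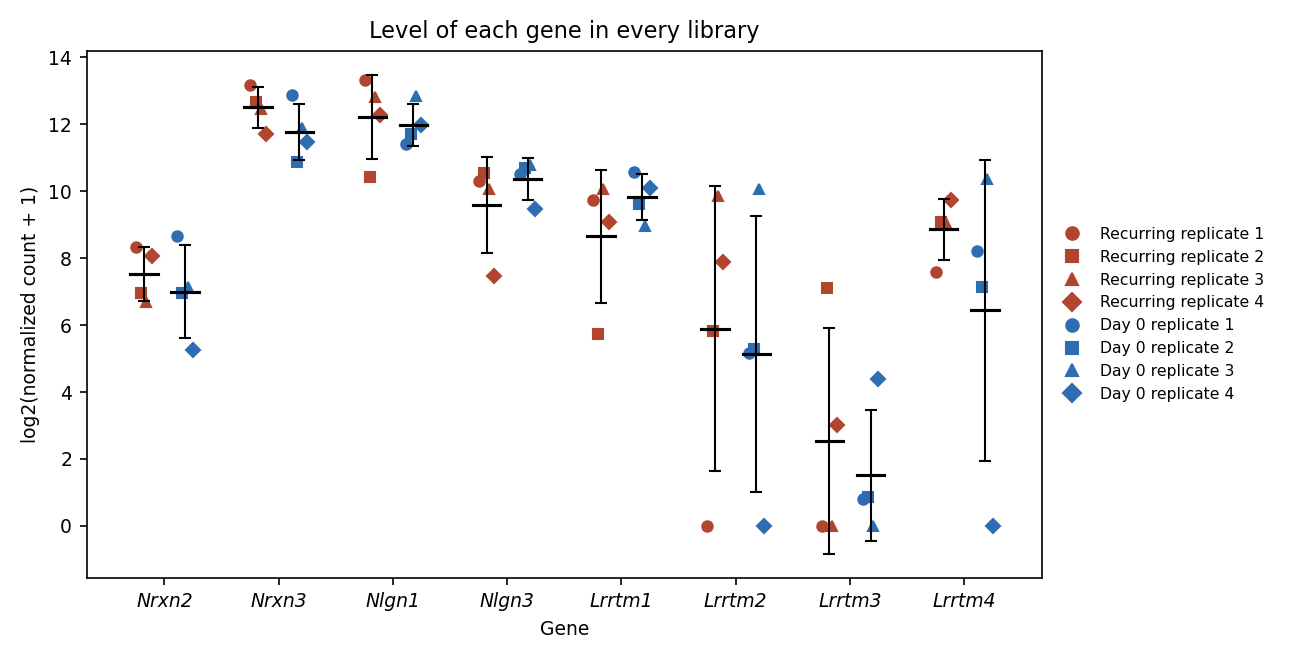
Log2 level (log2 of the normalized count plus 1, vertical axis) of each of the 8 genes in the 4 Recurring (red) and 4 Day 0 (blue) libraries, with a marker shape per replicate, the mean as a black line and the SD as error bars. The groups overlap for all 8 genes, and Lrrtm2, Lrrtm3 and Lrrtm4 span from 0 to high levels.

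The neurexin with the higher level was Nrxn3, which in the hippocampus has been linked to AMPA receptor retention and to transmitter release. It was read in all 8 libraries, at 9335, 6464, 5628 and 3349 in Recurring replicates 1 to 4 and at 7493, 1873, 3794 and 2840 in Day 0 replicates 1 to 4. Day 0 replicate 1 stood among the higher Recurring values, and the lowest Recurring library lay above 2 of the 4 Day 0 libraries. The mean was 6194 ± 2473 in Recurring and 4000 ± 2457 in Day 0 cells (SD, n = 4 each). On the log2 scale Recurring minus Day 0 was 0.73 (SE 0.43, 95% interval -0.19 to 1.64), with a limma p of 0.112 before adjustment and 0.981 after it. This was the smallest unadjusted p among the members. It was under 0.05 in 3 alternative fits, at 0.0212 without Day 0 replicate 1, 0.0434 without Recurring replicate 4 and 0.0465 with library weights, where the adjusted p was 0.973, 0.977 and 0.983. The difference was 0.43 without Day 0 replicate 2 (unadjusted p of 0.347) and 0.50 without Recurring replicate 1 (unadjusted p of 0.295). In Recurring replicates 1 to 4 the astrocyte markers summed to 18632, 9527, 5529 and 2367, the same order as Nrxn3, and in Day 0 replicates 1 to 4 to 2948, 4256, 2716 and 3442, where Nrxn3 was highest in replicate 1 and lowest in replicate 2. Slc1a2, a glutamate transporter and the astrocyte marker with the highest mean, was at 3418, 2297, 2111 and 62.9 in Recurring replicates 1 to 4. The part of astrocyte RNA in the Nrxn3 result was not tested.

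Nrxn2 was read in every library at a far lower level. It stood at 322, 124, 103 and 266 in Recurring replicates 1 to 4, and at 407, 123, 139 and 37.1 in Day 0 replicates 1 to 4. The highest and the lowest values were both in Day 0 libraries, so the Recurring values lay inside the Day 0 range. The log2 difference was 0.52 (SE 1.43, 95% interval -2.50 to 3.53, limma adjusted p = 0.998). Without Day 0 replicate 4, the lowest library, it was -0.07.

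Because library depth cancels in a ratio of genes of the same library, the balance of Nrxn3 to Nrxn2 was also compared. The log2 ratio was 4.85, 5.69, 5.76 and 3.65 in Recurring replicates 1 to 4 and 4.20, 3.92, 4.76 and 6.22 in Day 0 replicates 1 to 4. The Day 0 libraries held the highest ratio, and the Recurring libraries the lowest. The mean was 4.99 ± 0.98 in Recurring and 4.78 ± 1.02 in Day 0 cells (SD, n = 4 each), a difference of 0.21 (2-sided exact permutation p = 0.8, adjusted over the 2 ratios compared 0.8). The smallest p that 4 against 4 libraries can give is 0.0286.

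**Figure D2:**
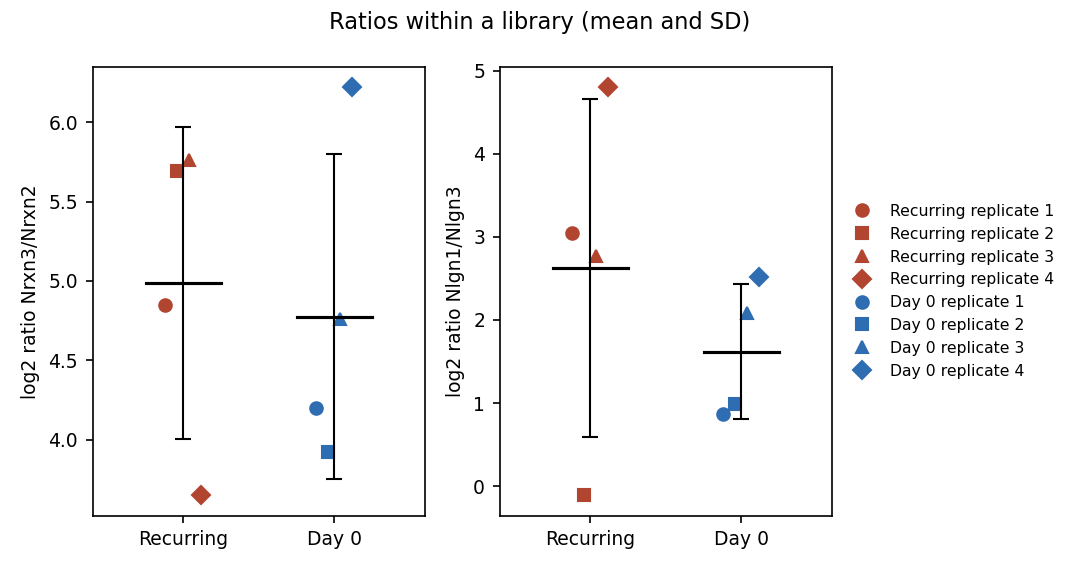
Log2 ratio of Nrxn3 to Nrxn2 (left) and of Nlgn1 to Nlgn3 (right) within each library, for Recurring and Day 0 cells, with the mean as a black line and the SD as error bars. The neurexin ratio averages 4.99 in Recurring and 4.78 in Day 0 cells, and the neuroligin ratio in Recurring cells runs from -0.11 to 4.80.

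Among the neuroligins, Nlgn1 was the gene with the higher level. It stood at 10394, 1388, 7268 and 4933 in Recurring replicates 1 to 4 and at 2706, 3317, 7426 and 4030 in Day 0 replicates 1 to 4. The Recurring libraries held both the highest and the lowest value, in replicates 1 and 2, and the Day 0 libraries lay between them. The mean log2 level was 12.22 ± 1.27 in Recurring and 11.98 ± 0.63 in Day 0 cells (SD, n = 4 each), a difference of 0.24 (SE 0.52, 95% interval -0.86 to 1.33, limma adjusted p = 0.998). Without Recurring replicate 1, the library with the highest astrocyte marker sum (18632), the difference was -0.14, and without Recurring replicate 2 it was 0.83 (unadjusted p of 0.0635).

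Nlgn3, which lies on the X chromosome, had the lower mean in Recurring cells. It stood at 1263, 1498, 1064 and 176 in Recurring replicates 1 to 4, and at 1482, 1674, 1759 and 703 in Day 0 replicates 1 to 4. Recurring replicate 4 was far below the other 7 libraries, whose values ran from 703 to 1759. The log2 difference was -0.78 (SE 0.71, 95% interval -2.28 to 0.73, limma adjusted p = 0.981), and without that library it was -0.07. In Recurring replicate 4 the 5 measured of 9 microglia markers summed to 6056 with 0 of them at 0 reads, against 507 to 1861 in the other Recurring and 213 to 707 in the Day 0 libraries. Ctss, a lysosomal protease and the microglia marker with the highest mean, was at 1998 in that library. Oligodendrocyte markers also had their highest Recurring sum in Recurring replicate 4, at 7644. They summed to 12071 in Day 0 replicate 4, the lowest Day 0 library for Nlgn3, where microglia markers summed to 676. In Day 0 replicate 2 they summed to 6337, with Nlgn3 at 1674. The part of microglia or oligodendrocyte RNA in the Nlgn3 result was not tested.

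The ratio of Nlgn1 to Nlgn3 had its highest and lowest values in Recurring libraries. The log2 ratio was 3.04, -0.11, 2.77 and 4.80 in Recurring replicates 1 to 4 and 0.87, 0.99, 2.08 and 2.52 in Day 0 replicates 1 to 4. In 3 of the 4 Recurring libraries it lay above all 4 Day 0 values, and in Recurring replicate 2 below all of them. The mean was 2.63 ± 2.04 in Recurring and 1.61 ± 0.81 in Day 0 cells (SD, n = 4 each), a difference of 1.01 (2-sided exact permutation p = 0.429, adjusted 0.8). Without Recurring replicate 2 the difference was 1.93 (exact permutation p = 0.0571), and without Recurring replicate 4 it was 0.29 (exact permutation p = 0.8).

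The postsynaptic Lrrtm1, whose protein supports excitatory transmission in CA1 neurons, had a lower mean in Recurring cells. It stood at 847, 52.5, 1070 and 537 in Recurring replicates 1 to 4 and at 1536, 785, 502 and 1099 in Day 0 replicates 1 to 4. All libraries but Recurring replicate 2 lay between 502 and 1536. The log2 difference was -1.17 (SE 0.92, 95% interval -3.12 to 0.78, limma adjusted p = 0.981), and without Recurring replicate 2 it was -0.20. That library had the highest summed level of interneuron markers, 14045 against at most 7906 in the other Recurring and 4527 in the Day 0 libraries, with 1 of the 11 at 0 reads. Kcnc2, a potassium channel gene and the interneuron marker with the highest mean, was at 1728 there, against 3310 in Recurring replicate 3. Recurring replicate 2 also had the lowest Nlgn1 value. In Recurring replicate 3, with the interneuron sum of 7906, Lrrtm1 was highest among Recurring libraries at 1070, and Nlgn1 was at 7268. In Day 0 replicate 1, with the sum of 4527, Lrrtm1 was highest of all at 1536, and Nlgn1 was lowest among Day 0 libraries at 2706. Markers of dentate granule and CA3 neurons also had their highest Recurring sum, 16533, in Recurring replicate 2. The part of RNA from interneurons or these other neurons in the Lrrtm1 and Nlgn1 values was not tested.

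Lrrtm2, whose protein binds neurexins tightly and anchors AMPA receptors, was read in 3 of the 4 Recurring and 3 of the 4 Day 0 libraries. It stood at 0, 55.7, 934 and 235 in Recurring replicates 1 to 4 and at 34.9, 38.3, 1084 and 0 in Day 0 replicates 1 to 4. A single library in each group stood near 1000 and a single library in each had no reads, so the spread inside the groups was far larger than the difference between them. A count of 0 allows up to 3 reads, or a normalized count of 1.86 in Recurring replicate 1 and 3.01 in Day 0 replicate 4, counting error only. The log2 difference was 0.76 (SE 2.67, 95% interval -4.87 to 6.39, limma adjusted p = 0.998). It was -0.57 without Recurring replicate 3 and -0.95 without Day 0 replicate 4.

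Lrrtm4 was read in 4 of 4 Recurring and 3 of 4 Day 0 libraries. It stood at 193, 538, 524 and 852 in Recurring replicates 1 to 4, and at 299, 140, 1332 and 0 in Day 0 replicates 1 to 4. The Day 0 libraries held both the highest value and the 0. The log2 difference of 2.43 (SE 1.80, 95% interval -1.38 to 6.23, limma adjusted p = 0.981) was the largest among the members, and without Day 0 replicate 4, the library at 0, it was 0.28. Since this gene is best known from granule cells of the dentate gyrus, markers of dentate granule and CA3 neurons are given beside it. The 8 measured of 10 summed to 6218 to 16533 in Recurring and 5860 to 19746 in Day 0 libraries, and Day 0 replicate 4, with no Lrrtm4 reads, had the highest sum. Most of that sum was Chgb, the secretory granule protein chromogranin B, at 16511 in this library, while 4 of the 8 markers were at 0.

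Lrrtm3, the remaining LRRTM, was at the edge of detection. It had 0, 171, 0 and 7 reads in Recurring replicates 1 to 4 and 1, 1, 0 and 20 reads in Day 0 replicates 1 to 4. Only in Recurring replicate 2, with 138 after normalization, did it exceed 20.0 normalized counts. In a fit with no filter the log2 difference was 1.02 (SE 1.77, 95% interval -2.69 to 4.74, limma adjusted p = 0.995).

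The genes could be ranked against each other only per length. Normalized counts were divided by the length of each gene's merged exons, from 3.03 kb for Lrrtm1 to 13.8 kb for Nrxn2 in GENCODE vM21. This annotation is of an earlier mouse build than the authors' alignment, so the ranks are approximate. The median over the 8 libraries was 374 per kb for Nrxn3, 334 for Nlgn1 and 269 for Lrrtm1. Their ranges overlapped widely, and Nlgn1 ranked highest in 4 libraries, Nrxn3 in 2 and Lrrtm1 in 2. Nlgn3 followed at 148 per kb and Lrrtm4 at 67.0 per kb. At the low end were Nrxn2 at 9.52 per kb, Lrrtm2 at 7.80 and Lrrtm3 at 0.181. Nrxn3 lay between 149 and 741 per kb, above every Nrxn2 value, which lay between 2.68 and 29.4.

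**Figure D3:**
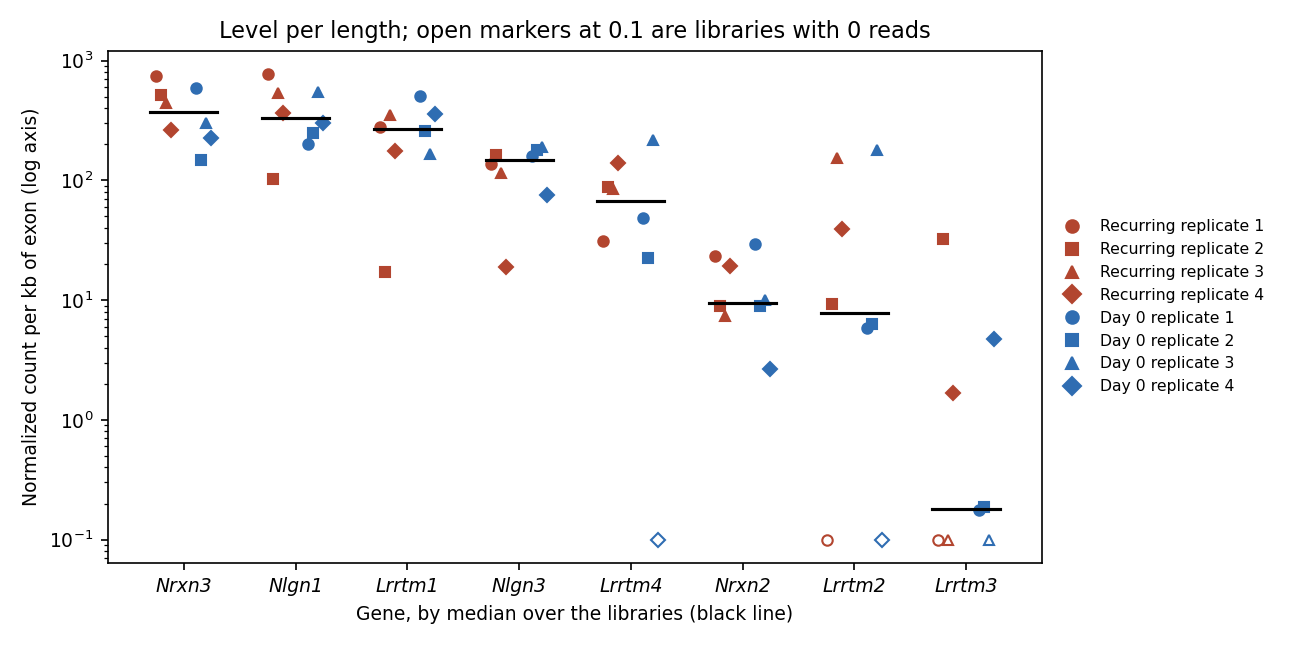
Normalized count per kb of merged exon (log axis) of each gene in each library, ordered by the median over the 8 libraries (black line), with open markers at the bottom for libraries with 0 reads. Nrxn3, Nlgn1 and Lrrtm1 have medians of 374, 334 and 269 per kb, and Lrrtm3 of 0.181.

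The genes differed in how much they varied between libraries. The SD of the log2 level over all 8 libraries was 0.78 for Nrxn3 and 0.93 for Nlgn1. It was 1.09 for Nrxn2, 1.10 for Nlgn3 and 1.51 for Lrrtm1. For Lrrtm3, Lrrtm4 and Lrrtm2, the genes with libraries at 0, it was 2.61, 3.27 and 3.90. The limma standard error of the difference was 0.43 for Nrxn3 and 0.52 for Nlgn1, against a median of 1.78 over all genes tested. Through the variance trend this error also draws on other genes of similar level, so it is not a measure of a gene's own spread alone. Of all genes tested, 45.6% were at 0 in at least 1 library.

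**Figure D4:**
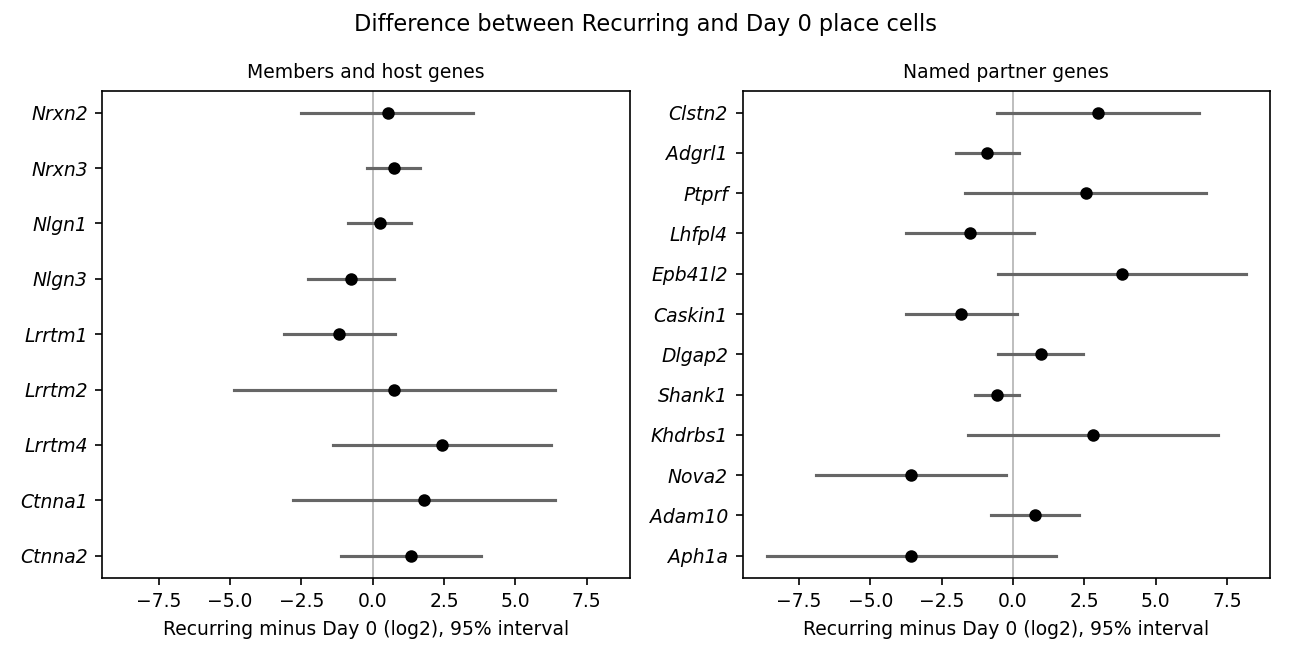
Difference (Recurring minus Day 0, log2, horizontal axis) with its 95% interval for the 7 tested members with 2 host genes of Lrrtm genes (left) and for 12 named partner genes (right). Every interval on the left includes 0, and on the right only that of Nova2, -6.89 to -0.25, does not.

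Lrrtm1, Lrrtm2 and Lrrtm3 each lie inside a gene of an alpha-catenin, a protein that ties cadherins to actin. By GENCODE vM21, Lrrtm1 lies in Ctnna2, Lrrtm2 in Ctnna1 and Lrrtm3 in Ctnna3, each on the opposite strand. Lrrtm2 and Ctnna1 share 95 exon bases, Lrrtm1 and Ctnna2 share 0, and Lrrtm3 and Ctnna3 share 0. Nuclear RNA holds unspliced transcripts, and the sources used here do not say whether strand was used in counting. Unspliced host reads that fall in Lrrtm exons can therefore not be told apart from Lrrtm reads. This makes the Lrrtm1, Lrrtm2 and Lrrtm3 values uncertain, and the host genes are given beside them. The other 5 members each overlap at least 1 other annotated gene, mostly noncoding. Shared exon bases were not counted for these members, and how far their values are affected was not tested. Ctnna3 was not among the genes of the deposited table and could not be analysed.

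Ctnna2, the neuronal alpha-catenin, stood at 1024, 1008, 418 and 444 in Recurring replicates 1 to 4, and at 879, 613, 14.3 and 564 in Day 0 replicates 1 to 4. In Day 0 replicate 3, where Ctnna2 was lowest at 14.3, Lrrtm1 was at 502, and in Recurring replicate 2, where Lrrtm1 was lowest, Ctnna2 was at 1008. The levels of both genes showed no relation past the threshold. Over the 8 libraries their log2 levels had a Pearson's r of -0.03 (exact permutation p = 0.932, adjusted over the 2 pairs 0.932) and a Spearman's rho of 0.10 (exact permutation p = 0.84, adjusted 0.872). Without Recurring replicate 1 and Day 0 replicate 3, the libraries farthest from the median of Ctnna2, r was -0.50, and without Recurring replicate 2 it was 0.64 (exact permutation p = 0.111), so its sign rests on the libraries included.

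Ctnna1, the broadly expressed alpha-catenin, stood at 5.57, 2160, 92.2 and 357 in Recurring replicates 1 to 4 and at 16.4, 174, 4.78 and 182 in Day 0 replicates 1 to 4. Lrrtm2 was highest, at 1084, in Day 0 replicate 3, the library with the lowest Ctnna1 value. Pearson's r was 0.05 (exact permutation p = 0.9, adjusted 0.932) and Spearman's rho -0.07 (exact permutation p = 0.872, adjusted 0.872). Without Recurring replicate 1 and Day 0 replicate 3, r was 0.01. Between the groups Ctnna2 differed by 1.34 (SE 1.17, limma adjusted p = 0.981) and Ctnna1 by 1.80 (SE 2.18, limma adjusted p = 0.997).

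**Figure D5:**
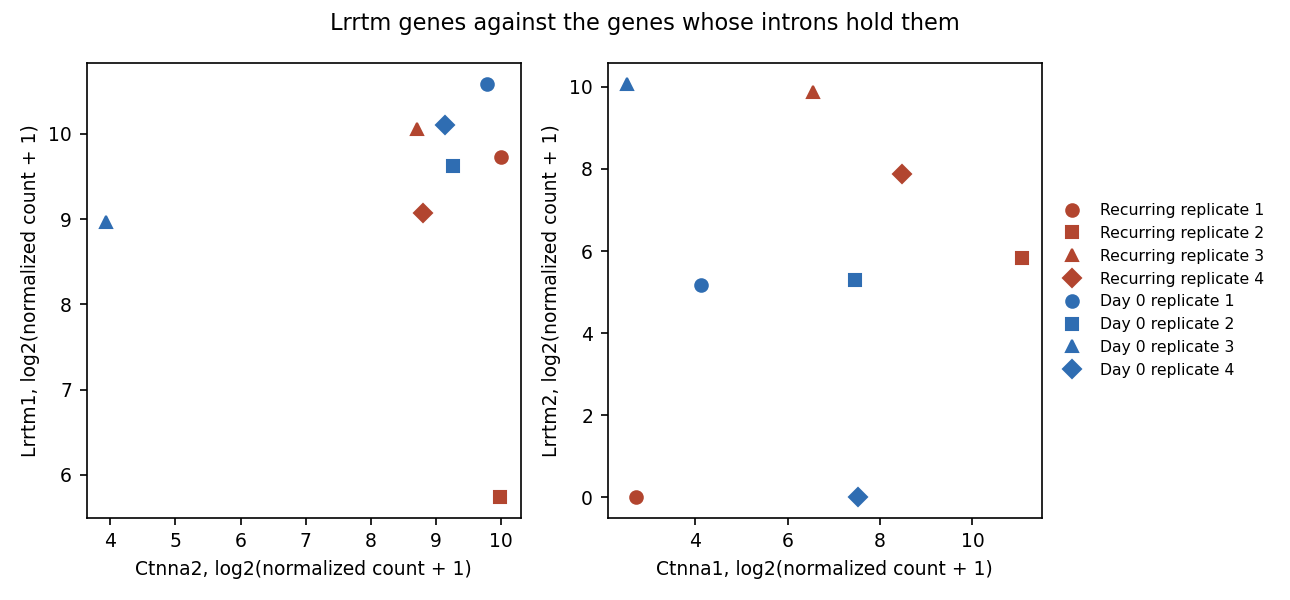
Log2 level of Lrrtm1 against its host gene Ctnna2 (left) and of Lrrtm2 against its host gene Ctnna1 (right), a point per library, red for Recurring and blue for Day 0 cells. Pearson's r is -0.03 on the left and 0.05 on the right.

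The proteins that bind, anchor, splice or cleave neurexins, neuroligins and LRRTMs were read from 6 lists of 89 genes, of which 74 were in the table and 71 were tested. By limma 0 of the 71 passed the adjusted threshold, against 0% of all genes tested, and 1 had an unadjusted p under 0.05, where 3.62% of all genes tested did. The mean was higher in Recurring cells for 32 and lower for 39, with a median difference of -0.04. The groups did not overlap in 0 of the 71, against 2.41% of all genes tested. By voom 0 of the 71 passed the threshold, as did 0 of all 11078 genes.

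Other extracellular ligands of neurexins, such as cerebellins, calsyntenins and latrophilins, numbered 5 higher and 6 lower of 11 tested (median -0.19). Clstn2, a calsyntenin, stood at 1867, 773, 601 and 513 in Recurring replicates 1 to 4 and at 795, 472, 0 and 310 in Day 0 replicates 1 to 4. The log2 difference was 2.98 (SE 1.67, limma adjusted p = 0.981), with Day 0 replicate 3 at 0. Adgrl1, the latrophilin that binds both teneurins and neurexins, stood at 2062, 579, 2402 and 917 in Recurring cells and between 2240 and 2557 in the 4 Day 0 libraries. Its difference was -0.90 (SE 0.52, limma adjusted p = 0.981), and Recurring replicate 3 lay inside the Day 0 range.

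Regulators that act on neuroligins or LRRTMs from the same or the facing membrane numbered 3 higher and 6 lower of 9 tested (median -0.01). Ptprf, the receptor phosphatase LAR, differed by 2.55 (SE 2.00) and Lhfpl4, a partner of GABA-A receptors and neuroligins, by -1.50 (SE 1.06), both at an limma adjusted p of 0.981. Lhfpl4 stood at 172, 84.8, 119 and 328 in Recurring cells and at 508, 293, 483 and 518 in Day 0 cells. Only Recurring replicate 4 lay above the lowest Day 0 library.

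Scaffolds that bind neurexin tails inside the presynaptic terminal were split 8 higher and 7 lower of 15 tested (median 0.04). Caskin1, a partner of the neurexin-binding kinase CASK, stood at 911, 44.4, 369 and 444 in Recurring replicates 1 to 4 and at 921, 687, 1236 and 1294 in Day 0 replicates 1 to 4. Only Recurring replicate 1 overlapped the Day 0 range. The difference was -1.81 (SE 0.92, limma adjusted p = 0.981). Epb41l2, a membrane skeleton protein of the band 4.1 family, differed by 3.81 (SE 2.06, limma adjusted p = 0.981). Its normalized count was 0 to 174 in Recurring cells and 0 to 17.8 in Day 0 cells.

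Postsynaptic scaffolds of neuroligins and LRRTMs, such as the PSD-95 and Shank families and gephyrin, numbered 4 higher and 12 lower of 16 tested, with a median of -0.20. Shank1 stood at 4797, 2650, 2290 and 3269 in Recurring and at 4091, 4861, 6007 and 3741 in Day 0 cells. Recurring replicate 1 lay within the Day 0 range and the other 3 Recurring libraries below it. The difference was -0.56 (SE 0.36, 95% interval -1.32 to 0.21, limma adjusted p = 0.981). Dlgap2, which links the PSD-95 and Shank families, differed by 0.97 (SE 0.71, limma adjusted p = 0.981).

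RNA-binding proteins known to act on splicing of neurexins or other synaptic genes numbered 7 higher and 5 lower of 12 tested (median 0.13). Nova2, a neuronal splicing factor, was the gene of the 71 with an unadjusted p under 0.05. It stood at 3.72, 386, 15.9 and 197 in Recurring replicates 1 to 4 and at 831, 443, 1105 and 297 in Day 0 replicates 1 to 4. Only Recurring replicate 2 lay above the lowest Day 0 value. The difference was -3.57 (SE 1.57, 95% interval -6.89 to -0.25), with an unadjusted p of 0.0367 and an limma adjusted p of 0.981. Khdrbs1, the splicing factor SAM68, differed by 2.81 (SE 2.07, limma adjusted p = 0.981).

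Proteases that cleave neurexins or neuroligins and their complexes numbered 5 higher and 3 lower of 8 tested (median 0.37). Adam10, a sheddase, stood at 647, 677, 927 and 672 in Recurring and at 793, 344, 320 and 364 in Day 0 cells. Only Day 0 replicate 1 lay inside the Recurring range and the other 3 below it. The difference was 0.77 (SE 0.74, limma adjusted p = 0.981). Aph1a, a gamma-secretase subunit, differed by -3.57 (SE 2.40, limma adjusted p = 0.981), with 2 Recurring libraries at 0.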

How the data were processed

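The 8 libraries of nuclear RNA were built with the SMART-Seq mRNA LP kit, as the labels state. The submitters' processing notes name STAR, HTSeq and GRCm39, without versions. The authors deposited a linear signal per gene and library that is not corrected for depth. From the values, each gene appeared to be whole reads times a constant. The constants were matched by trimmed means of M values taken across genes relative to Ptdss1, a form inferred from the data, with a trimming rule chosen because it gave whole reads. Removing them left 95909 of the 95910 values above 0 within 0.1 of a whole read, and the other (15616 reads) 0.271 away. Median-of-ratios size factors (0.837 to 1.61) then scaled the reads to normalized counts.

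Tested were the 11078 genes that reached a normalized count of 10 in 4 libraries, on log2 of the count plus a pseudocount of 1. The model was limma (version 3.58.1, R 4.3.3) with its variance trend, with Benjamini-Hochberg adjustment over all these genes and a threshold of 0.05. Ratios and correlations had 2-sided exact permutation tests. The fits were tested on simulated data. With a median standard error of 1.78 log2 units over all genes tested, a gene short of the threshold is not shown to be unchanged. A p-value here reflects spread among libraries that may be partly technical. Genes named are the members, the host genes, the tested gene of each partner list with the smallest p in each direction, and the highest marker of a list. Alternatives were the pseudocount, filter, scaling, trend, voom, library weights and leaving out each library. The members and lists were chosen with earlier results of these data known.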

Additional observations from a re-analysis of the deposited data

Results flagged for a closer look

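In Recurring cells the log2 level of Nlgn3 in replicate 4 was 7.46. Its gap to the nearest of the other 3 libraries took up 0.84 of the range of the group, just above Dixon's 95% critical value for 4 samples. This was 1 of the 16 groups of 4 libraries looked at, and chance flags about 1 in 20.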

How the results depend on the processing

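Under the 16 alternatives, 0 members and 0 partner genes passed the threshold, and neither did any other gene, except 2 of 11078 with no variance trend. Of 112 alternative values of member differences, 108 kept their sign and 4 turned, all with a library left out: Nlgn1 was -0.14 without Recurring replicate 1, Lrrtm2 -0.57 without Recurring replicate 3 and -0.95 without Day 0 replicate 4, and Nrxn2 -0.07 without Day 0 replicate 4. The Nrxn2 difference reached 1.07 without Day 0 replicate 1, Nlgn1 0.83 without Recurring replicate 2, Lrrtm2 2.72 without Recurring replicate 1 and Lrrtm4 3.74 without Day 0 replicate 3. The Nrxn3 to Nrxn2 ratio difference ranged from -0.07 to 0.69 with a library left out, and turned without Recurring replicate 2 (-0.02), Recurring replicate 3 (-0.05) and Day 0 replicate 2 (-0.07). The Nlgn1 to Nlgn3 difference ranged from 0.29 to 1.93. Pearson's r of Lrrtm1 with Ctnna2 was 0.03 with total reads as the scale and ranged from -0.37 to 0.64 with a library left out, the highest without Recurring replicate 2 (exact permutation p = 0.111). Pearson's r of Lrrtm2 with Ctnna1 was -0.05 with a pseudocount of 10, and ranged from -0.32 (without Recurring replicate 1) to 0.38, with -0.02 without Recurring replicate 4. The cause was not tested. No paired analysis was possible because the replicates were numbered in the order of deposit and the labels pair no libraries. The correlation of Lrrtm3 with Ctnna3 could not be run, because Ctnna3 was not among the genes of the deposited table.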
